A study of Mus musculus with 10 samples.

Results

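The 10 genes described here are 5 annexins (Anxa1, Anxa2, Anxa3, Anxa5 and Anxa8), 4 S100 genes (S100a4, S100a6, S100a10 and S100a11) and Ahnak. They were chosen by name, as genes of 1 protein network, out of 41091 gene identifiers counted in each library, and all 10 passed the filter on low counts. The cells were adherent cultures of adult olfactory epithelium from C57BL6 mice, dissociated 9 days after a lesion with methimazole, a drug that strips the epithelium so that it regrows from basal stem cells. All groups grew on gelatin in a proliferation medium with EGF, FGF2 and heparin, and all received a lentivirus with a short hairpin RNA. The hairpin was a non-targeting scramble in 4 libraries (shCTR replicates 1, 2, 5 and 6), against Cbx7 in 3 (shCBX7 replicates 1, 2 and 5) and against Cbx8 in 3 (shCBX8 replicates 1, 2 and 6). Both proteins belong to Polycomb repressive complex 1, a chromatin complex that silences genes, where they bind a methylated tail of histone H3, and the series title names their loss in regrowing epithelium as its subject. The series text counts 3 biological replicates for each treatment, whereas 4 libraries carry the control label, and this difference was not resolved. The labels name no animal or culture behind a replicate number, so p-values measure only the spread between these libraries, which may be technical.

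Annexins are cytosolic proteins that bind acidic membrane lipids when calcium rises. S100 proteins are small EF-hand calcium sensors that pair up and clasp target proteins, several annexins among them. The best known complex joins a pair of Anxa2 and a pair of S100a10 under the plasma membrane, where it binds the C-terminal region of Ahnak, a giant scaffold protein, and can present plasminogen and its activator at the cell surface. S100a11 is the partner of Anxa1 and also binds Anxa2, and with Ahnak these proteins take part in closing wounds in the plasma membrane. In epithelia Anxa1, Anxa3 and Anxa8 are mostly known from surface and basal cells, while S100a4 and S100a6 are known as abundant products of fibroblasts and other motile cells.

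Total gene counts ran from 22763014 to 50463172 per library. The targeted gene checked 1 of the 2 knockdowns: Cbx8 stood at 4.71 to 5.14 CPM (counts relative to the scaled library size) with its hairpin and at 10.2 to 15.9 CPM in control, which edgeR put at -1.31 on the log2 scale (SE 0.22, adjusted p = 0.00416). Cbx7 stood at 3.64 to 13.2 CPM with its hairpin and at 5.30 to 17.7 CPM in control (log2 fold change -0.67, SE 0.48, adjusted p = 0.929), so its level did not check that label. Libraries shCTR 1 and 2 stood apart by unmapped reads, 21.7 and 19.6% against 5.03 to 13.98% in the 8 others. Each control library also differed from every shCBX7 and shCBX8 library, with 9.83 to 21.7% unmapped reads against 5.03 to 7.81%. Reads outside genes made up 20.4 to 23.6% against 12.5 to 18.6%. The gene model Gm10800 took 1.96 to 10.4% of gene counts against 0.737 to 1.51%. In comparisons against control, the hairpin and these library differences cannot be told apart. Library shCBX8 2 stood apart from shCBX8 1 and 6 for several of the 10 genes, as given below. Of cell type markers, those of fibroblasts were abundant, while Omp of mature olfactory neurons and Neurog1 of neuronal progenitors averaged at most 0.506 and 0.0475 CPM in any group. In these bulk libraries fewer cells of a type and less RNA per cell cannot be told apart.

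Of the 10 genes, 5 lie on chromosome 3 of GRCm38. S100a4 (90603771 to 90606045, plus strand) and S100a6 (90612882 to 90624181, plus strand) are 6.837 kb apart, and S100a11 (93520488 to 93526287, plus strand) and S100a10 (93555080 to 93564643, plus strand) are 28.793 kb apart. Anxa5 (36448923 to 36475894, minus strand) lies far from both pairs. Ahnak (8989284 to 9076914, plus strand) and Anxa1 (20373428 to 20390944, minus strand) are on chromosome 19, Anxa2 (69453620 to 69491795, plus strand) on chromosome 9, Anxa3 (96793339 to 96845966, plus strand) on chromosome 5 and Anxa8 (34085981 to 34100571, plus strand) on chromosome 14. All are protein-coding.

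Promoter windows of RefSeq (GRCm38.p6, 250 bases before to 50 after the start) matched 8 of the 10 genes, all but Anxa3 and S100a10. The 250 bases before the start are shown 5′ to 3′ on the gene's strand for 4 genes whose levels changed with the Cbx8 hairpin, so that their elements can be set beside the values. Capitals mark 2 motifs, the AP-1 element TGANTCA and the TEAD element GGAATG, searched on both strands in the whole window, so that a TEAD match on the other strand reads CATTCC. The windows are chr3:93520246-93520495 for S100a11 and chr3:90603520-90603769 for S100a4, both on the plus strand, then chr19:20390672-20390921 on the minus strand for Anxa1 and chr19:8989034-8989283 on the plus strand for Ahnak.
S100a11: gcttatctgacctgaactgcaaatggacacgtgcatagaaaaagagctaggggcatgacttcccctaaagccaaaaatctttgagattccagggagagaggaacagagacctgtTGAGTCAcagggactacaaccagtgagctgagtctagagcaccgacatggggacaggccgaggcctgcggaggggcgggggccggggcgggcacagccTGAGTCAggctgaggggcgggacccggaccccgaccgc
S100a4: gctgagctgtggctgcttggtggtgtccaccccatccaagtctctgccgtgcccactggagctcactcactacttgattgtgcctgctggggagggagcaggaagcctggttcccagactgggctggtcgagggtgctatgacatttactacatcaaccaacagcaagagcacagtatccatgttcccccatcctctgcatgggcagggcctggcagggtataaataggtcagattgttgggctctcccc
Anxa1: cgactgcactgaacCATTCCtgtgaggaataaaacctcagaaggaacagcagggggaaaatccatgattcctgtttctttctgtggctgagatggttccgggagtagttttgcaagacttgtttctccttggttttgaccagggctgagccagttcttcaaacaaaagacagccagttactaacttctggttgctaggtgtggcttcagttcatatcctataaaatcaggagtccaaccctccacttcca
Ahnak: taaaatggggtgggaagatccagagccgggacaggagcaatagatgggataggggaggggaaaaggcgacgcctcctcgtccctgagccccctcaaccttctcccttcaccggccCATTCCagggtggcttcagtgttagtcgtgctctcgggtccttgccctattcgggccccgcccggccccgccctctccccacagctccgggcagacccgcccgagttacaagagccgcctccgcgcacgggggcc

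S100a11 holds 2 copies of TGAGTCA, at 136 and 38 bases before the start. Anxa2 holds 1, at 95 bases before its start, and 7.81% of 32851 windows hold at least 1 AP-1 match. Anxa1 and Ahnak, which moved in opposite directions, each hold 1 TEAD match, at 236 and 135 bases before the start, as do 14.7% of windows. A CArG box, the element of serum response factor, was found in the Anxa5 window only (1.63% of windows), and none of the 3 motifs was found in those of Anxa8, S100a4 and S100a6. Of the 8 windows that of S100a4 was the poorest in CpG: its ratio of observed to expected CpG was 0.0871, against a median of 0.384 over all windows, while Ahnak was the richest at 0.652. These matches describe letters in the windows and nothing about the factors.

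By mean CPM per kilobase of exon in control, the 10 genes ranked from 8th (S100a6) to 2067th (Anxa8) of 21384 protein-coding genes, and S100a11, Anxa3 and Anxa8 were the 3 outside the first 90. Together the 10 took 0.961 to 1.55% of gene counts in control, 1.21 to 1.63% with the Cbx7 hairpin and 1.57 to 2.15% with the Cbx8 hairpin. Of these shares of unscaled counts, Anxa1 alone held 0.134 to 0.303% in control and 0.648 to 1.51% with the Cbx8 hairpin. After scaling, the sums of the 10 overlapped, at 10950 to 15830 CPM in control and 14900 to 19670 CPM with the Cbx8 hairpin. The per-kilobase scale allows genes to be compared. On it the order of mean levels in control was S100a6, S100a4, Anxa1, Anxa5, Anxa2, Ahnak, S100a10, S100a11, Anxa3 and Anxa8. Only the step from S100a10 to S100a11 separated neighbours in that order without overlap of their libraries, and in each control library the latter was below the former. S100a6 averaged 1895 ± 337 CPM per kb (SD, n = 4) in control and was the 7th to 12th protein-coding gene of each control library by that measure, while Anxa8 averaged 23.1 ± 10.9.

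With the Cbx8 hairpin the order was Anxa1, S100a6, Anxa2, Anxa5, S100a4, S100a10, Ahnak, Anxa3, S100a11 and Anxa8. Anxa1 reached 3591 ± 1343 CPM per kb (SD, n = 3) and was the 2nd, 7th and 3rd protein-coding gene in shCBX8 1, 2 and 6. S100a4 went the other way, from ranks 10 to 22 in the control libraries to ranks 361, 30 and 1179.

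**Figure D1:**
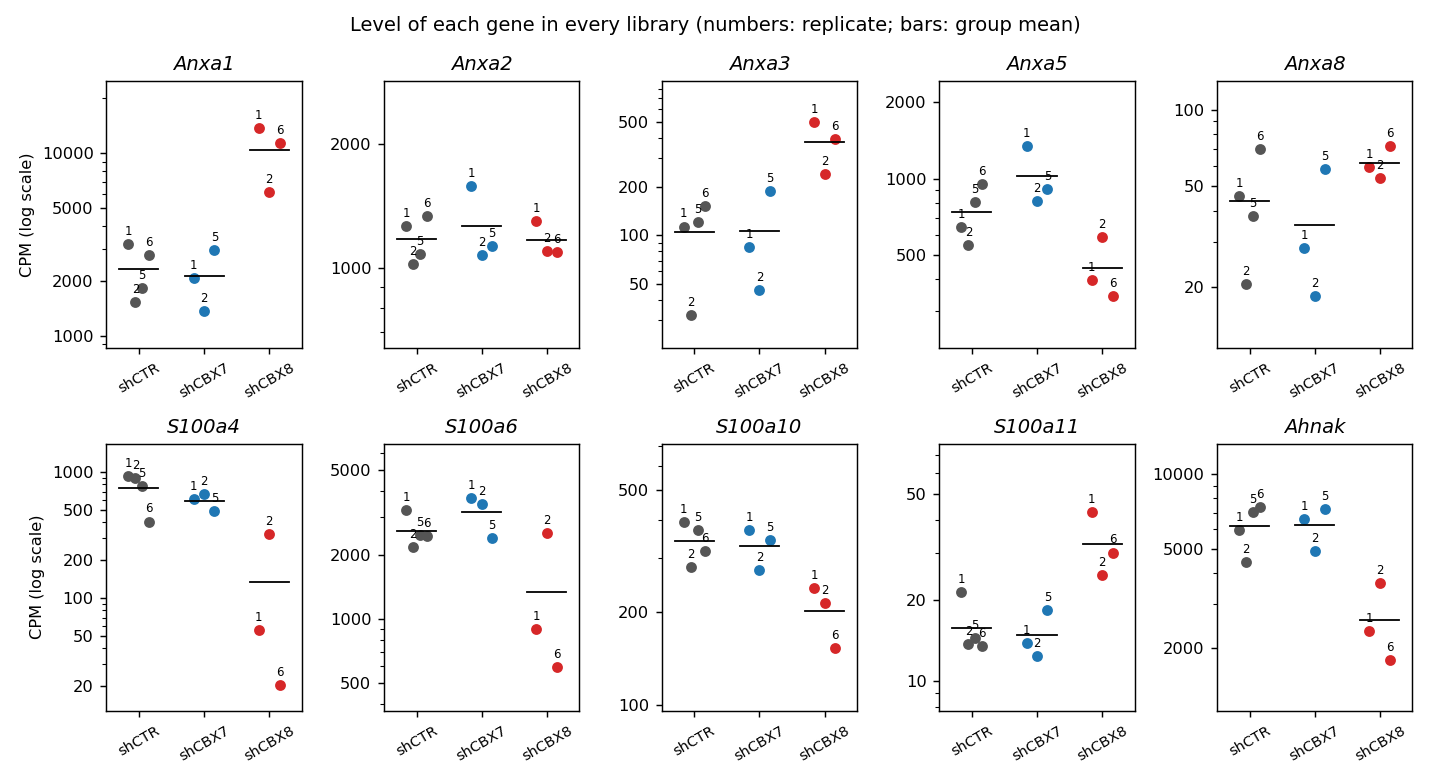
CPM of each of the 10 genes (vertical axes, log scale, own range for each gene) in the 4 shCTR, 3 shCBX7 and 3 shCBX8 libraries. Each point is a library with its replicate number, and bars are group means. With the Cbx8 hairpin Anxa1, Anxa3 and S100a11 lie above every control library and S100a4, S100a10 and Ahnak below, while shCTR and shCBX7 overlap for all 10.

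With the Cbx8 hairpin 3 of the 10 genes rose (Anxa1, Anxa3 and S100a11) and 3 fell (S100a4, S100a10 and Ahnak) against control at an adjusted p under 0.05. The background in this comparison is high: 32.9% of the 16669 genes tested passed, 17% higher and 15.9% lower, so that 6 of 10 is not read as a property of the set. The median log2 fold change of the 10 was -0.38, against -0.01 over all genes. The libraries of the 2 groups did not overlap for the same 6 genes, as for 42.4% of all genes. Without shCTR 1 and 2 the count was 3 (Anxa1, S100a11 and Ahnak), where 14.3% of all genes passed. Without shCBX8 2 it was 8, with Anxa5 and S100a6 added below control, where 35.6% of all genes passed. Opposite-strand counts over olfactory receptor genes entered 1 fit as a covariate. They were higher in each control library (32.9 to 111 CPM) than in any other library (up to 27.4 CPM). That fit can thus hardly tell the hairpin from this background, here and wherever the covariate is named below. With it the targeted gene Cbx8 itself did not pass (-1.05, adjusted p = 0.0831). In that fit 13.9% of all genes passed. Of the 10, Anxa5, S100a11 and Ahnak passed, and Anxa1 (2.40, adjusted p = 0.0505), Anxa3 (1.61, adjusted p = 0.282), S100a4 (-3.45, adjusted p = 0.235) and S100a10 (-0.73, adjusted p = 0.176) did not.

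Anxa1, a substrate of the EGF receptor and a ligand of formyl peptide receptors, was the gene that reached the highest level. Its level was 3181, 1527, 1826 and 2761 CPM in shCTR 1, 2, 5 and 6, and 13833, 6171 and 11352 CPM in shCBX8 1, 2 and 6. The lowest shCBX8 library thus lay above the highest control library, and the 2 groups did not overlap. The rise was 4.50-fold (log2 fold change 2.17, SE 0.40, adjusted p = 0.00546). It passed with each of the 10 libraries left out in turn, at log2 fold changes of 1.92 to 2.44.

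Anxa3, an annexin known from neutrophil granules and the other one of the 5 that rose, stood at 113, 32.4, 121 and 151 CPM in control. It stood at 497, 238 and 391 CPM in shCBX8 1, 2 and 6, each above every control library. The rise was 3.59-fold (log2 fold change 1.84, SE 0.56, adjusted p = 0.0335). Each of 4 single omissions ended the call, with an adjusted p of 0.0693, 0.0621, 0.114 and 0.0893 without shCTR 1, shCTR 5, shCBX8 1 and shCBX8 6, and 0.118 (log2 fold change 1.44) without both shCTR 1 and 2.

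Anxa8, an annexin of stratified epithelia, did not follow them past the test. It stood at 45.7, 20.4, 38.0 and 69.9 CPM in control and at 59.2, 53.5 and 72.0 CPM with the Cbx8 hairpin (log2 fold change 0.50, SE 0.44, adjusted p = 0.402). The groups overlapped, since shCTR 6 lay above shCBX8 1 and 2. Replicate 2 held the lowest level of Anxa1, Anxa3 and Anxa8 in control, with the Cbx7 hairpin and with the Cbx8 hairpin. This was not particular to them: shCTR 2 and shCBX7 2 were each lowest for 8 of the 10 genes, and shCBX8 2 also for S100a11.

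The summed level of markers of horizontal basal cells, the reserve stem cells of the epithelium, was highest in the 3 shCBX8 libraries. The same 3 libraries held the highest Anxa1 and Anxa3. Within groups the order differed for Anxa1: shCTR 1 held its highest control level and a sum of 1025 CPM, below shCTR 5 and 6 (1351 and 2217 CPM). Library shCBX8 6 held the highest sum, while Anxa1 was highest in shCBX8 1. With the Cbx8 hairpin 32.9% of all genes tested passed against control, 17% as higher. Of 11 basal cell markers 3 rose (Krt17, Trp63 and Lamb3) and none fell, which is not read as a property of the list. Their summed level was 449.6 to 2217 CPM in control, 475 to 2257 CPM with the Cbx7 hairpin and 3258 to 7142 CPM with the Cbx8 hairpin. With the Cbx8 hairpin most of that sum was Krt17, a keratin of basal and wounded epithelium, which averaged 246 ± 226 CPM in control (SD, n = 4) and 3347 ± 1655 CPM with the Cbx8 hairpin (SD, n = 3). None of the 11 was at 0, and Trp63, the transcription factor that defines these cells, averaged 3.45 ± 1.90 CPM in control and 12.2 ± 3.77 CPM with the Cbx8 hairpin. The other markers of this list did not pass. Krt14, Krt15 and Itgb4 lay above every control library, while Krt5, Itga6, Col17a1 and Perp overlapped with control. Icam1 also overlapped and was lower on average (log2 fold change -0.82, adjusted p = 0.151). Of 14 immune markers 8 were tested, and 3 of these also rose (Cd14, Cd68 and Aif1). The sum of the 14 was 32.6 to 52.1 CPM in control and 102 to 180 CPM with the Cbx8 hairpin, most of it Cd14. Ptprc, common to leukocytes, averaged 1.05 CPM or less in each group, and C1qa, C1qb and C1qc 0.198 CPM or less. Markers of further cell types moved as well. Of 10 smooth muscle and pericyte markers Rgs5, a pericyte gene, rose from 576.5 ± 486 CPM in control (SD, n = 4) to 3293 ± 1798 CPM (SD, n = 3) and Abcc9 fell, and their sum was 593 to 1873 CPM in control and 1792 to 5591 CPM with the Cbx8 hairpin. Of 10 sustentacular cell markers 8 were tested and none passed. Their sum was 357 to 460.2 CPM in control and 494 to 940 CPM with the Cbx8 hairpin. Tek and Vwf also rose, of 10 endothelial markers with 8 tested, as did Mbp, of 11 glial markers with 8 tested. Of 12 progenitor and neuron markers 10 were tested, of which Lgr5 and Gnal rose and Neurod1 and Stmn2 fell. The summed levels of these 3 lists overlapped with control. The part of any of these cells in the rise of Anxa1 and Anxa3 was not tested.

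Anxa2, the annexin of the complex with S100a10, held its level. It stood at 1267, 1022, 1080 and 1336 CPM in control and at 1302, 1100 and 1096 CPM with the Cbx8 hairpin. All 3 shCBX8 libraries lay within the range of the control libraries. The log2 fold change was -0.01 (SE 0.19, 95% interval -0.43 to 0.41, adjusted p = 0.966), and its sign turned under other scalings and filters, so no direction is given.

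Anxa5, which binds phosphatidylserine and is used as a probe for dying cells, stood at 642, 545, 808 and 951 CPM in control. With the Cbx8 hairpin it stood at 396, 585 and 342 CPM, with shCBX8 2 above shCTR 2. The log2 fold change of -0.74 (SE 0.28, adjusted p = 0.0659) did not pass. It passed without shCBX8 2 (-0.998, adjusted p = 0.0281), without shCTR 2 (-0.89, adjusted p = 0.0451) and with DESeq2 (-0.74, adjusted p = 0.0326).

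S100a10, the S100 protein that has lost calcium binding and is held in its active shape by Anxa2, fell with the Cbx8 hairpin while Anxa2 did not pass. Its level was 395, 282, 371 and 317 CPM in control and 240, 215 and 153 CPM in shCBX8 1, 2 and 6. Each shCBX8 library lay below every control library. The fall was 1.69-fold (log2 fold change -0.75, SE 0.19, adjusted p = 0.0188). The call ended without shCBX8 6 (-0.58, adjusted p = 0.0778) and without shCTR 1 and 2 (-0.78, adjusted p = 0.0555), and with libraries scaled by their totals alone (-0.58, adjusted p = 0.0566).

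The ratio of S100a10 to Anxa2 within a library, from counts per kilobase, does not depend on library scaling. In control it was 0.959, 0.850, 1.06 and 0.731 (replicates 1, 2, 5 and 6). With the Cbx7 hairpin it was 0.723, 0.788 and 0.935 (replicates 1, 2 and 5), and with the Cbx8 hairpin 0.567, 0.600 and 0.429 (replicates 1, 2 and 6). The highest shCBX8 value lay below the lowest value of both other groups. Means were 0.899 ± 0.141 in control (SD, n = 4) and 0.532 ± 0.0908 with the Cbx8 hairpin (SD, n = 3), a difference of -0.76 on the log2 scale (two-sided exact permutation test, p = 0.0286, the smallest that 35 splits allow). With the Cbx7 hairpin the mean was 0.815 ± 0.109 (SD, n = 3; difference from control -0.14, exact p = 0.40), and between the 2 knockdowns the difference was -0.62 (exact p = 0.10, the smallest that 20 splits allow). Adjusted over these 3 comparisons by the Benjamini-Hochberg method, the p-values were 0.0857 for the Cbx8 hairpin against control, 0.15 between the knockdowns and 0.40 for the Cbx7 hairpin, so that none passed. Without shCTR 1 and 2 the difference from control was -0.74, where the smallest possible p is 0.10. A ratio within a library shows unequal change of the 2 genes and not which of them changed.

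S100a11, the partner of Anxa1, rose with the Cbx8 hairpin although it lies next to S100a10, which fell. It stood at 21.4, 13.8, 14.5 and 13.5 CPM in control and at 42.7, 24.95 and 30.2 CPM in shCBX8 1, 2 and 6, with no overlap. The rise was 2.06-fold (log2 fold change 1.05, SE 0.24, adjusted p = 0.0123), and it missed the threshold without shCBX8 1 (0.81, adjusted p = 0.0585). Of its sequence, 41.13% of 50-base stretches also occur in processed pseudogenes, so its counts are uncertain. The copy that shares most, Gm12854, held at most 0.238 CPM. Multimapping reads were tallied apart from gene counts, so that low value cannot show whether reads were lost from both. The level and ratios of S100a11 may thus be too low. Its ratio to S100a10 per kilobase ran from 0.0928 to 0.129 in control, from 0.0885 to 0.127 with the Cbx7 hairpin and was 0.422, 0.276 and 0.468 in shCBX8 1, 2 and 6. That gap follows from the levels of the 2 genes, which moved in opposite directions, and is no further result. The ratio of S100a11 to Anxa1 was lower instead, at 0.0152 to 0.0230 against 0.0279 to 0.0514 in control, Anxa1 having the larger fold change.

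**Figure D2:**
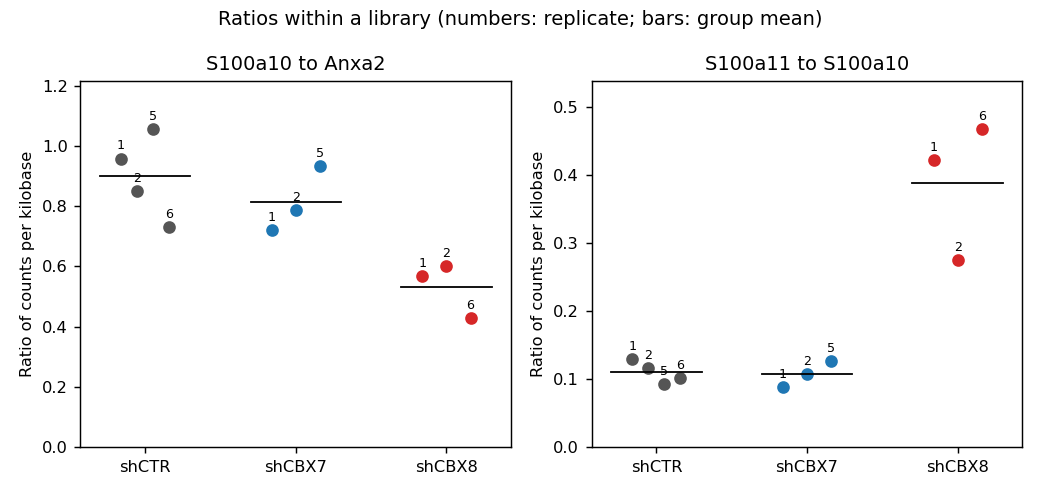
Ratio of S100a10 to Anxa2 (left) and of S100a11 to S100a10 (right), from counts per kilobase of exon, in each library, with group means as bars and linear axes from 0. On the left the 3 shCBX8 libraries (0.429 to 0.600) lie below all others, and on the right (0.276 to 0.468) above all others. The right side follows from the levels of S100a11 and S100a10, which moved in opposite directions, and is no further result.

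S100a4, also called fibroblast-specific protein, had the largest fold difference of the 10 genes and the least even one. It stood at 936, 895, 774 and 406 CPM in control and at 56.1, 325 and 20.4 CPM in shCBX8 1, 2 and 6. No library overlapped, but shCBX8 2 lay close under shCTR 6 and far above the other shCBX8 libraries. The fall was 5.63-fold (log2 fold change -2.49, SE 0.81, adjusted p = 0.0410). Without shCBX8 2 it was -4.30 (adjusted p = 0.00110), and the call ended without 7 of the 10 single libraries (shCTR 1, 2 and 5, shCBX7 1 and 5, shCBX8 1 and 6; log2 fold changes -2.51 to -1.97, adjusted p 0.0539 to 0.135) and without shCTR 1 and 2 (-2.16, adjusted p = 0.150). A gene model that overlaps S100a4, Gm42674, shares 56.35% of its 50-base stretches and was not counted here.

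S100a6, also called calcyclin and the neighbour of S100a4, had the same uneven pattern and did not pass. It stood at 3250, 2181, 2478 and 2452 CPM in control and at 903, 2525 and 596 CPM in shCBX8 1, 2 and 6. Libraries shCBX8 1 and 6 lay below every control library, and shCBX8 2 lay within the control range. The log2 fold change was -0.95 (SE 0.45, adjusted p = 0.130). Without shCBX8 2 it was -1.79 (adjusted p = 0.00332).

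Ahnak, the scaffold that the complex of Anxa2 and S100a10 binds, fell 2.38-fold. It stood at 5979, 4434, 7018 and 7362 CPM in control and at 2336, 3667 and 1795 CPM in shCBX8 1, 2 and 6. In control it was the 3rd protein-coding gene by mean CPM, a measure that grows with gene length. Divided by its 19938 bases of exon, its level ranked 81st in control and 237th with the Cbx8 hairpin. Each shCBX8 library lay below every control library, with shCBX8 2 nearest to them. The log2 fold change was -1.25 (SE 0.32, adjusted p = 0.0178), and the call ended without shCBX8 1 (-1.17, adjusted p = 0.0811) or shCBX8 6 (-1.04, adjusted p = 0.0779). Ahnak held 0.306 to 0.624 of the level of Anxa2 per kilobase with the Cbx8 hairpin and 0.812 to 1.22 in control.

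Fibroblast markers moved with the genes that fell. With the Cbx8 hairpin 32.9% of all genes tested passed against control, 15.9% as lower, and the median log2 fold change was -0.01. Of 22 fibroblast markers 8 fell and none rose, with a median log2 fold change of -2.43. Their summed level was 8476 to 41380 CPM in control, 8212 to 23540 CPM with the Cbx7 hairpin, and 886, 4433 and 730 CPM in shCBX8 1, 2 and 6. Library shCBX8 2, in which S100a4, S100a6, Anxa5 and Ahnak were nearest to control, held the highest fibroblast sum of the 3. S100a10 did not follow that order: it was nearest to control in shCBX8 1, at 240 CPM, and stood at 215 CPM in shCBX8 2. None of the defining markers was at 0: Col1a1 averaged 680 ± 790 CPM in control (SD, n = 4) and 29.2 ± 45.6 CPM with the Cbx8 hairpin (SD, n = 3), and Pdgfra 1787 ± 1399 and 192 ± 302 CPM. Col1a1 passed (adjusted p = 0.0469). Pdgfra did not (adjusted p = 0.0844), nor did Col1a2, Col3a1, Dcn and Lum. Fbln2 of the same list was higher on average and did not pass (log2 fold change 0.57, adjusted p = 0.401). Within control the fibroblast sum and the levels of the 10 genes did not always run together: shCTR 2, the library with the highest fibroblast sum, held the lowest level of 8 of the 10 genes, S100a6 and Ahnak among them. The part of fibroblast content in the fall of S100a4, S100a10 and Ahnak was not tested.

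**Figure D3:**
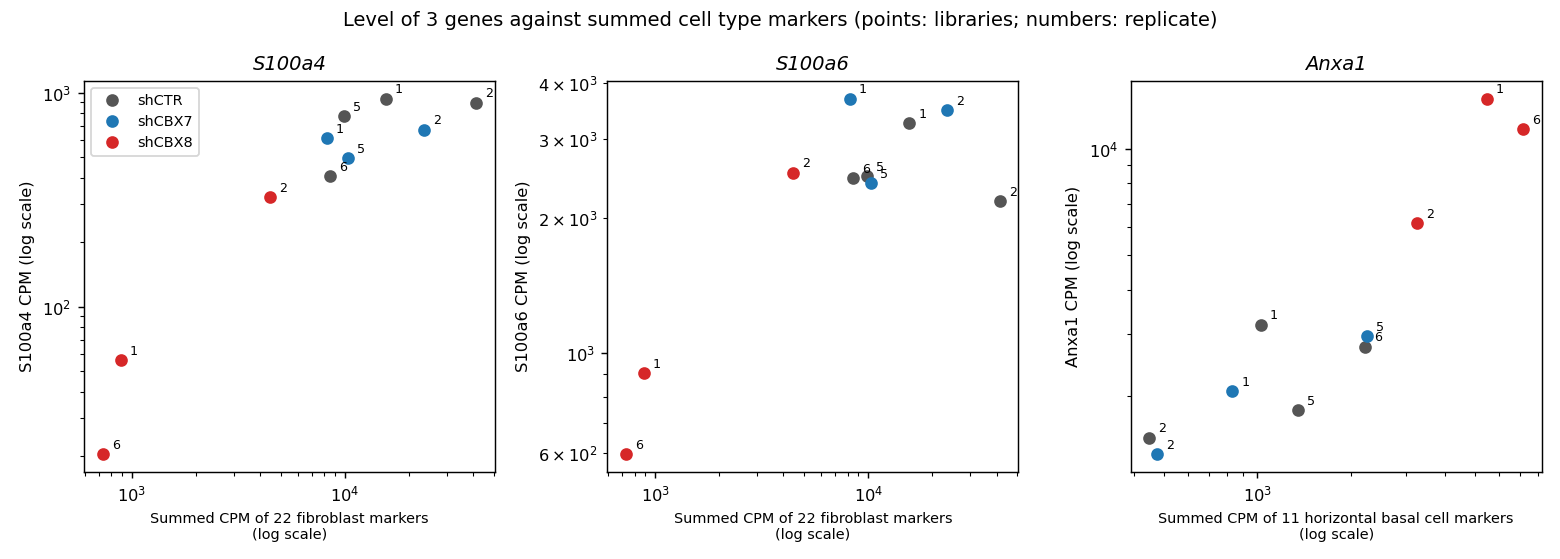
CPM of S100a4 and S100a6 against the summed CPM of 22 fibroblast markers, and of Anxa1 against the summed CPM of 11 horizontal basal cell markers (all axes log scale). Each point is a library, coloured by group and numbered by replicate. Libraries shCBX8 1 and 6 lie at the low end of the fibroblast sum (886 and 730 CPM), shCBX8 2 between them and the others (4433 CPM), and the 3 shCBX8 libraries hold the highest basal cell sums (3258 to 7142 CPM) and the highest Anxa1.

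With the Cbx7 hairpin none of the 10 genes passed the test against control, as none of the 16669 genes did (0% by edgeR, with 975 genes at an unadjusted p under 0.05, and 91 genes by DESeq2, none of the 10 among them). The libraries of the 2 groups overlapped for each of the 10, while 5.42% of all genes did not overlap. The largest difference was that of Anxa5, which stood at 1351, 816 and 906 CPM in shCBX7 1, 2 and 5 (log2 fold change 0.48, SE 0.27, adjusted p = 0.929). Its 95% interval ran from -0.13 to 1.08. For Anxa1 the levels were 2065, 1373 and 2953 CPM (log2 fold change -0.13, 95% interval -1.01 to 0.76), and for Ahnak 6578, 4929 and 7217 CPM (0.01, interval -0.68 to 0.70). S100a4 stood at 613, 670 and 494 CPM, with a log2 fold change of -0.35 and a wide 95% interval of -2.01 to 1.32. The median log2 fold change of the 10 was -0.02.

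**Figure D4:**
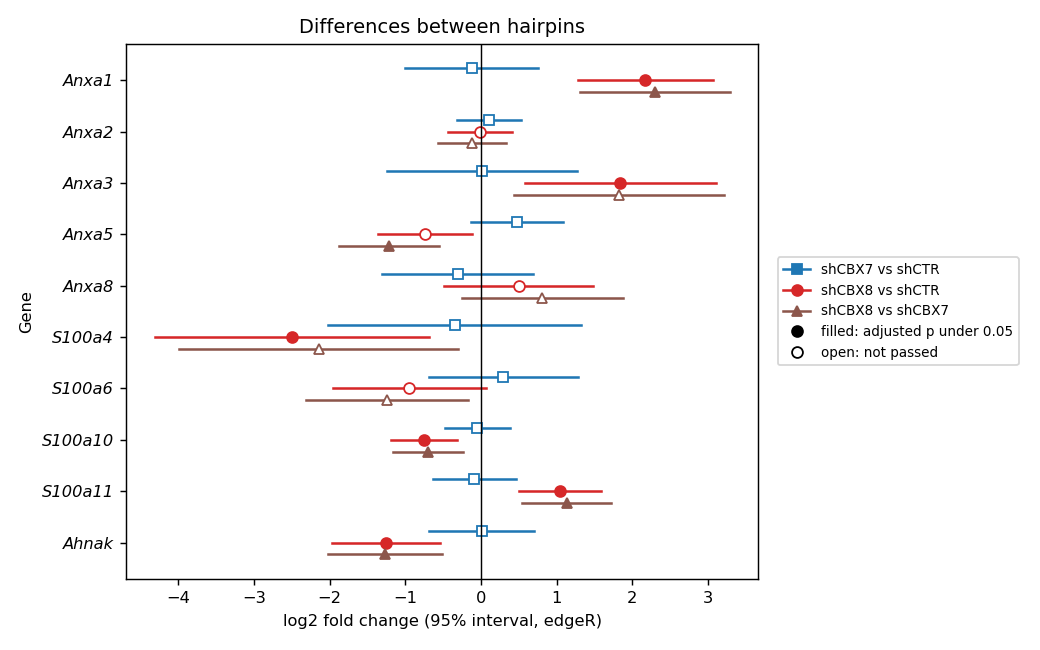
Log2 fold change of each gene (horizontal axis) with its 95% interval from edgeR, for shCBX7 against shCTR, shCBX8 against shCTR and shCBX8 against shCBX7. Filled symbols passed an adjusted p of 0.05: 0, 6 and 5 of the 10 genes.

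Set against the Cbx7 hairpin instead of control, the Cbx8 hairpin gave 5 calls, with Anxa1 and S100a11 higher and Anxa5, S100a10 and Ahnak lower. In this comparison 28.6% of genes passed, 15.3% higher and 13.3% lower. It shares the shCBX8 libraries with the comparison against control and is no separate support for it. Anxa1 was 4.91-fold higher (log2 fold change 2.29, SE 0.44, adjusted p = 0.00786) and S100a11 2.19-fold higher (1.13, SE 0.26, adjusted p = 0.0145). Anxa5 was 2.32-fold lower (-1.22, SE 0.30, adjusted p = 0.0170), and the 3 shCBX8 libraries lay below the 3 shCBX7 libraries. Ahnak was 2.40-fold lower (-1.26, SE 0.33, adjusted p = 0.0229) and S100a10 1.63-fold lower (-0.71, SE 0.21, adjusted p = 0.0319).

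Anxa3 (1.83, adjusted p = 0.0522), S100a4 (-2.15, adjusted p = 0.0763) and S100a6 (-1.25, adjusted p = 0.0762) did not pass between the knockdowns, and each did without shCBX8 2 (2.05, -3.97 and -2.10, adjusted p = 0.0412, 0.00161 and 0.00223). The S100a6 libraries overlapped, as did those of Anxa2 and Anxa8, and those of the other 7 genes did not, against 48.2% of all genes. The calls of Anxa5, S100a10, S100a11 and Ahnak each ended without shCBX8 1 (adjusted p = 0.0723, 0.0506, 0.0607 and 0.0944) and without shCBX7 1 (adjusted p = 0.0544, 0.0807, 0.0523 and 0.0560). They also ended without shCBX8 6 for Anxa5, S100a10 and Ahnak, without shCBX7 5 for S100a10 and Ahnak, and without shCBX7 2 for S100a11. Anxa1 passed in each such fit. With the replicate number as a block, a pairing that the labels do not give, Anxa5 and Ahnak did not pass, while Anxa3 and S100a4 did.

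Of 7 other annexins 5 were tested, and with the Cbx8 hairpin 2 rose and 1 fell against control. In that comparison 32.9% of all genes tested passed. Anxa6, an annexin with a doubled core, was lower at 142, 115 and 145 CPM against 301, 365, 193 and 148 CPM in control (log2 fold change -0.91, adjusted p = 0.0384). Anxa11 (0.56, adjusted p = 0.0287) and Anxa9 (1.01, adjusted p = 0.0264) were higher at low levels, 18.6 ± 2.17 and 2.18 ± 0.280 CPM (SD, n = 3). Each of these 3 calls ended without shCTR 1, shCBX8 1 or shCBX8 6, and for some also without shCTR 2, 5 or 6 or shCBX8 2. Without both shCTR 1 and 2 Anxa6 was at -0.37 (adjusted p = 0.210) and Anxa11 at 0.47 (adjusted p = 0.141). With the covariate of opposite-strand receptor counts none of the 3 passed, and Anxa6 turned to 0.14 (adjusted p = 0.789). Anxa7 (0.42, adjusted p = 0.162) and Anxa4 (0.01, adjusted p = 0.965) did not pass.

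Of 12 other S100 genes 11 were tested, of which 2 rose and 2 fell, where 32.9% of all genes tested passed. S100a9, a subunit of calprotectin made by myeloid cells and stressed epithelium, stood at 0.0712 to 0.396 CPM in control and at 5.07, 2.71 and 6.24 CPM in shCBX8 1, 2 and 6 (log2 fold change 4.65, adjusted p = 0.00234). Its partner S100a8 averaged 22.9 ± 27.6 CPM with the Cbx8 hairpin (SD, n = 3) and 3.83 ± 3.65 CPM in control (SD, n = 4) and did not pass (2.57, adjusted p = 0.0865). S100z rose from at most 0.178 CPM to 0.962 to 2.58 CPM (3.998, adjusted p = 0.00647). S100a1 fell from 22.6 to 65.1 CPM to 6.06, 13.4 and 6.75 CPM (-2.20, adjusted p = 0.00730). S100b, a glial S100 gene, passed as lower (-2.23, adjusted p = 0.0418) although shCTR 2, at 2.81 CPM, lay among the shCBX8 libraries. That call ended without any one of shCTR 1, 5 and 6, shCBX7 1 and shCBX8 1, 2 and 6. With the covariate the calls of S100z (4.07, adjusted p = 0.0864), S100a1 (-1.63, adjusted p = 0.201) and S100b (-1.81, adjusted p = 0.283) ended, and that of S100a9 did not.

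**Figure D5:**
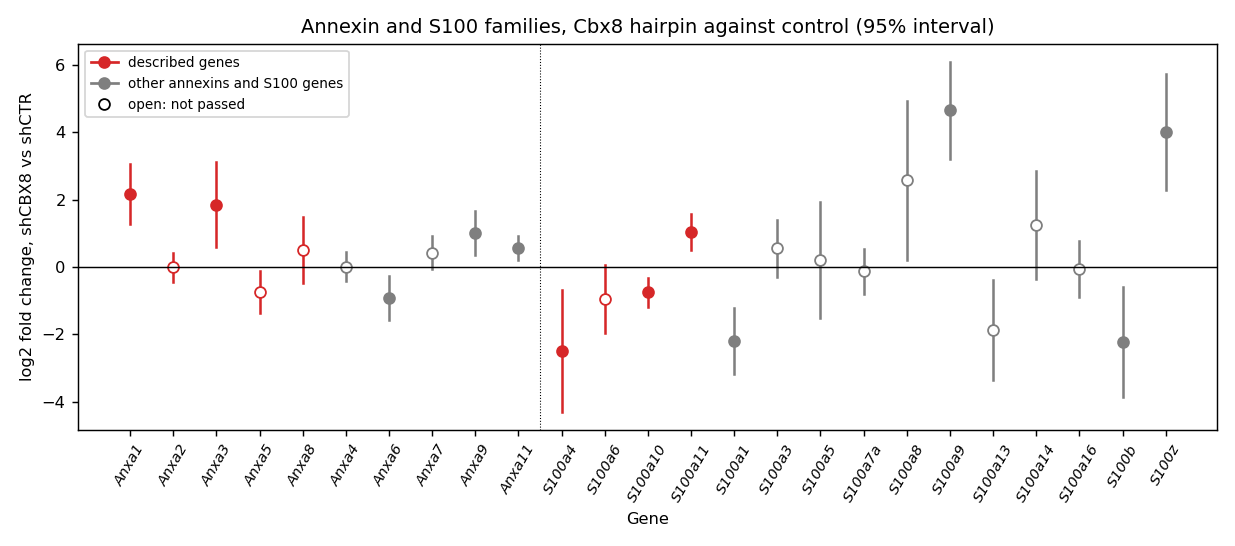
Log2 fold change of shCBX8 against shCTR with its 95% interval for the tested annexin genes (left of the dotted line) and S100 genes (right), with the 9 described annexins and S100 genes in red. Filled symbols passed an adjusted p of 0.05: of the others 2 annexins and 2 S100 genes were higher, 1 and 2 lower.

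Of 20 genes for partners and receptors of these proteins, 18 were tested. With the Cbx8 hairpin 6 rose and 2 fell, where 32.9% of all genes tested passed. Plaur, the urokinase receptor, which works at the same cell surface as the complex of Anxa2 and S100a10, rose 5.63-fold from 4.96 to 16.8 CPM to 61.8, 63.6 and 48.1 CPM in shCBX8 1, 2 and 6 (log2 fold change 2.49, adjusted p = 0.00709). Capn2, a calcium-activated protease of membrane repair, rose 1.76-fold (0.81, adjusted p = 0.00570), Tlr4, a receptor for calprotectin, 1.55-fold (0.63, adjusted p = 0.00304), and Cacybp, the calcyclin-binding protein, 1.54-fold (0.63, adjusted p = 0.0104). Sugt1 and Pcna were the other 2 that rose. With the covariate the calls of Plaur (1.39, adjusted p = 0.214), Capn2 (0.69, adjusted p = 0.111) and Cacybp (0.46, adjusted p = 0.210) ended. That of Cacybp also ended without shCBX8 1 (0.55, adjusted p = 0.0508) and without shCTR 1 and 2 (0.45, adjusted p = 0.0779).

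The 2 that fell, named after their values were seen, were Ahnak2 and Myh9. Ahnak2, the paralog of Ahnak, stood at 341, 228, 352 and 396 CPM in control and at 86.4, 202 and 74.6 CPM in shCBX8 1, 2 and 6 (log2 fold change -1.44, adjusted p = 0.0158), with shCBX8 2 nearest to control as for Ahnak. Myh9, the non-muscle myosin heavy chain that S100a4 binds, fell from 1416 to 2361 CPM to 951, 1036 and 974 CPM (-0.84, adjusted p = 0.0183). Both calls ended without shCBX8 1 or without shCBX8 6. With the covariate both passed at larger differences (-2.28 and -1.43). The formyl peptide receptors Fpr1 and Fpr2 held 17 and 11 counts in all 10 libraries together and were not tested. None of these related genes passed with the Cbx7 hairpin.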

How the data were processed

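Total RNA of cultured cells was sequenced as 10 stranded libraries. Per the submitters' processing notes, bcl2fastq 2.17, Trim Galore 0.4.3 and STAR 2.5.0a were used with mm10, and which annotation release was counted is not given in the sources here. The deposited values are raw read counts per Ensembl gene, and the reverse-strand count was used. On the opposite strand each of the 10 genes held at most 0.734% of its counts. Symbols, positions and exon lengths came from GENCODE M21 (40217 of 41091 identifiers matched), and promoter windows from RefSeq.

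Genes were filtered with filterByExpr (minimum count 10), scaled with TMM factors (trimmed mean of M values) and tested with edgeR 4.0.16 (quasi-likelihood, R 4.3.3) with 1 factor, the group, fitted to all 10 libraries. P-values were adjusted by Benjamini-Hochberg over the 16669 genes tested, with 0.05 as the threshold. For shCBX8 against control the interval (95%) of the median gene was 0.61 wide on each side, in log2. Levels are CPM of the scaled library, divided by exon length only to compare genes, and the ratio of S100a10 to Anxa2 had an exact permutation test on log2 ratios. The fit was also run on simulated data, in which a small set of genes was changed and the groups did not differ in library quality. That run does not bear on the differences in library quality seen here.

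The 10 genes and the lists of related genes and markers were chosen with earlier results of these data known. All 10 are named, and of each related list the genes with the smallest p, up to 4. Of the cell type markers, 2 are not reported here and were left out of the lists' counts and sums. Alternatives were other scalings (median-ratio, library size only), other filters (none, a mean of 1 CPM), DESeq2 1.42.0, unstranded or forward-subtracted counts, a covariate of opposite-strand receptor counts, a fit of 2 groups only, a replicate block, omission of each library, of shCTR 1 and 2 or of the 10 most abundant genes, and a stricter threshold (0.01); those for related and targeted genes were chosen after seeing the data.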

Additional observations from a re-analysis of the deposited data

Results flagged for a closer look

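S100a11 stood at 21.4 CPM in shCTR 1, against 13.5 to 14.5 CPM in the 3 other control libraries. On the log2 scale the gap to the nearest of them was 0.843 of the range of the 4 libraries. That is above the value of 0.829 that marks a sample far from the others. It was the only such value among 25 groups of values checked. Chance gives about 1 in 20, so 1 in 25 is near what chance gives. The S100a11 call against control also passed without shCTR 1 (log2 fold change 1.19, adjusted p = 0.0131).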

How the results depend on the processing

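Against control the Cbx8 hairpin called 5478 genes and 6 of the 10. At a threshold of 0.01 it called 1844 genes and 1 of the 10 (Anxa1), without shCTR 1 and 2 2409 genes and 3 of the 10, and with the covariate of opposite-strand receptor counts 2311 genes and 3 of the 10 (Anxa5, S100a11 and Ahnak; Anxa1 at 2.40, adjusted p = 0.0505). With 1 library left out the counts ran from 2261 to 6193 genes and from 2 to 8 of the 10. Between the knockdowns they were 4762 genes and 5 of the 10, 1350 genes and 1 of the 10 at 0.01, 3 of the 10 without the 10 most abundant genes, which include Anxa1 and Ahnak themselves, and 1784 to 6005 genes and 1 to 8 of the 10 with 1 library left out. Those that moved them most were shCBX8 1 (2261 and 1848 genes, 2 and 1 of the 10, against control and between the knockdowns), shCBX8 6 (2279 and 1784 genes, 2 and 2 of the 10), shCBX8 2 (8 of the 10 in both), and, between the knockdowns, shCBX7 1 (2730 genes, 1 of the 10) and shCBX7 2 (2900 genes). For the Cbx7 hairpin DESeq2 called 91 genes and omission of shCTR 6 gave 41, the others 0, and none of the 10 in any of these. Scaling by library size alone moved the median over all genes from -0.01 to 0.17 (log2 fold change) for the Cbx8 hairpin, and the share of calls that were higher from 51.6 to 67.2%; no filter moved that median to -0.32. The cause of these changes was not tested.

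The labels do not say what a replicate number marks. Of 8 pairs of same-numbered libraries 6 had deviations from their group means that correlated above 0.1 (0.119 to 0.667, all 3 pairs of replicate 2 among them), and 2 did not (0.0634 and -0.0797), so the number was not taken as a pairing. When that number was a block (the replicate block), 6036 genes and the same 6 of the 10 were called for the Cbx8 hairpin and 4661 genes and 5 of the 10 between the knockdowns (Anxa1, Anxa3, S100a4, S100a10 and S100a11).

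Values that changed sign were not called in either fit, except Anxa6. Against control with the Cbx8 hairpin they were Anxa2 without filter (0.017), with library size only (0.17), with a mean of 1 CPM (0.0071), unstranded counts (0.042) and 1 library left out (-0.10 to 0.055), and, with the covariate, Anxa8 (-0.0044), Anxa6 (0.14) and Anxa7 (-0.30). With the covariate Cbx8 was at -1.05 (adjusted p = 0.0831) and Cbx7, with its own hairpin, at 1.78. With the Cbx7 hairpin the covariate gave Anxa1 0.22, Anxa2 -0.18, Anxa3 -0.33, Anxa5 -0.75, S100a6 -0.64, S100a11 0.74 and Ahnak -0.93. Without shCTR 1 and 2 Anxa3 was at -0.37, S100a4 at 0.0080, S100a11 at 0.086 and Ahnak at -0.20. A mean of 1 CPM gave Anxa3 -0.012 and Ahnak -0.021, forward counts subtracted Anxa3 -0.025 and Ahnak -0.038, the replicate block Ahnak -0.037, no filter S100a10 0.018, and unstranded counts S100a10 0.043 and S100a11 0.0031. With 1 library left out Anxa1 ran from -0.42 to 0.13, Anxa2 from -0.074 to 0.23, Anxa3 from -0.67 to 0.39, Anxa8 from -0.88 to 0.016, S100a10 from -0.13 to 0.091, S100a11 from -0.25 to 0.085 and Ahnak from -0.12 to 0.17. Between the knockdowns Anxa2 was at 0.043 with library size only and ran from -0.26 to 0.041 with 1 library left out. The log2 ratio of S100a10 to Anxa2 against control was -0.74 without shCTR 1 and 2 and ran from -0.85 to -0.61 with 1 library left out, where fewer libraries raise the smallest p to 0.0667 or 0.10. The scarcest of the 10 genes, S100a11, held 7813 counts in all, and what greater depth or more libraries would change was not tested.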
